A study of Mus musculus with 8 samples.

Results

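Barcodes that held collagen and melanoma transcripts together were examined in 8 large tumours of B16F10, a mouse melanoma cell line, profiled by droplet-based single-cell RNA sequencing. In this assay the transcripts of a captured cell share a barcode and each molecule carries its own identifier (UMI), and the counts are molecules of a gene in a barcode. Barcodes with 200 to 5000 genes and at most 7.5% of UMIs from mitochondrial genes were kept. Among them, a dual-marker barcode had at least 10 UMIs of *Col1a1*, *Col1a2*, *Col3a1* and *Dcn* together and at least 0.3% of its UMIs from *Mlana*, *Pmel*, *Dct*, *Tyr* and *Tyrp1* together. The rule found 90 dual-marker barcodes of 28411 kept and 41925 deposited. The barcodes that met only the collagen limit (CAF-only, for cancer-associated fibroblast) numbered 595, those that met only the melanoma limit (melanoma-only) 26307, and those that met neither 1419.

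Fibroblasts make fibrillar collagens (*Col1a1*, *Col1a2*, *Col3a1*) and decorin (*Dcn*), a proteoglycan that binds them, whereas pigment cells and the melanomas that arise from them make melanosome proteins (*Pmel*, *Mlana*) and the enzymes of melanin synthesis (*Tyr*, *Tyrp1*, *Dct*). Both sets can share a barcode when 2 cells enter a droplet or stay attached, when RNA released by broken cells is captured with an intact cell, or when 1 cell expresses both. Melanoma cells can also take on mesenchymal genes under transcription factors such as *Zeb1* and *Twist1*.

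All hosts were C57BL/6 mice that carried Rosa26::CreER-T2, a Cre recombinase expressed in all tissues and switched on by tamoxifen, and all received tamoxifen by oral gavage. In 4 hosts both *Atf4* alleles were intact (*Atf4* WT/WT). In the other 4 the floxed alleles were excised in the whole body (*Atf4* Δ/Δ), while the injected B16F10 cells kept their own *Atf4*. The tumours measured 300 mm3 and the labels give hosts of 12 weeks, with 1 library per tumour and the replicates named as biological, so that the tumour was the unit of every test. ATF4 is the transcription factor of the integrated stress response.

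The deposited tables held 37283598 to 74942137 UMIs per *Atf4* WT/WT tumour and 40492910 to 55655925 per *Atf4* Δ/Δ tumour. Any pair of the 8 libraries had 2 to 14 barcode sequences in common over the 28 pairs. Of 41725 distinct sequences, 199 occurred in 2 or more libraries, and 1 of the dual-marker barcodes was among them. No barcode was removed as a doublet, and whether a dual-marker barcode held 1 cell or 2 was not tested.

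The sex on the label of 4 hosts, all *Atf4* WT/WT, went against their sex-linked transcripts, and this bears on the results that use host sex. *Xist*, the noncoding RNA that silences 1 X chromosome in female cells, had 98 and 104 UMIs in the CAF-only barcodes of *Atf4* WT/WT tumours 1 and 3, whose hosts are labelled male. It had 0 UMIs in tumours 2 and 4, labelled female, where the Y-linked genes *Ddx3y*, *Uty*, *Eif2s3y* and *Kdm5d* together had 29 and 23 UMIs. In *Atf4* Δ/Δ tumour 1, labelled female, *Xist* had 263 UMIs and the Y-linked genes 0. In *Atf4* Δ/Δ tumours 2 to 4, labelled male, *Xist* had 0 UMIs and the Y-linked genes 52, 3 and 145. Groups stayed as labelled.

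Most dual-marker barcodes lay well beyond both limits of the rule. Of 685 barcodes with at least 10 collagen-set UMIs (collagen-high), 491 had a melanoma-set share under 0.1%, 90 a share of 0.1 to 0.2% and 14 a share of 0.2 to 0.3%. Beyond the limit, 3 lay at 0.3 to 0.4%, 4 at 0.4 to 0.5%, 42 at 0.5 to 1%, 37 at 1 to 1.5% and 4 above. The bins from 0.5% up were wider than those below, so their counts do not compare directly. Among the narrow bins, the fewest barcodes lay at 0.3 to 0.4%, just inside the limit. Just inside it the shares were 0.301%, 0.307% and 0.324%, and just outside it 0.2996%, 0.287% and 0.277%. On the other axis, 12 melanoma-positive barcodes had 5 to 7 collagen-set UMIs, 4 had 8 or 9, 2 had 10 or 11, and 50 had 100 or more. These bins too were unequal in width. The nearest dual-marker barcodes held 10, 10, 12 and 13 collagen-set UMIs and the nearest barcodes outside held 9, 8, 8, 8 and 7. The barcodes were chosen by these 2 measured values, the collagen-set UMIs and the melanoma-set share, which are therefore a description.

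**Figure D1:**
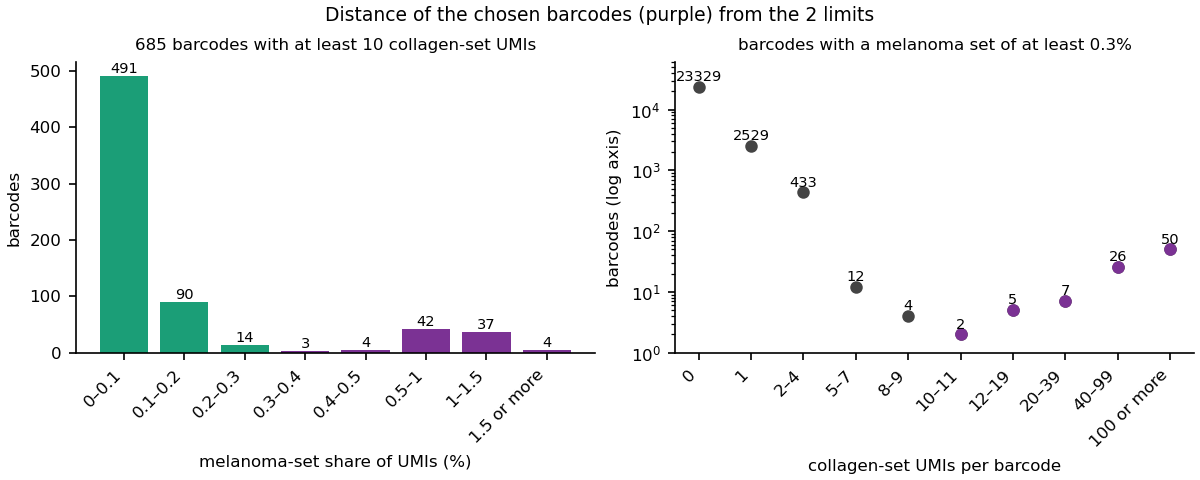
Left, number of collagen-high barcodes (y axis) by the share of their UMIs from the 5 melanoma genes (x axis, %). Right, number of barcodes with a melanoma-set share of at least 0.3% (y axis, log scale) by their collagen-set UMIs (x axis). Purple marks the 90 dual-marker barcodes. The bins beside the limit hold 14 and 3 barcodes at left and 4 and 2 at right. Bins are unequal in width, so bar heights and points do not compare directly between narrow and wide bins.

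The marker genes of both sets were present in nearly every dual-marker barcode. *Col1a1* and *Col3a1* were detected in 100% of them, as in 99.2% and 98.99% of CAF-only barcodes, and in 3.73% and 5.12% of melanoma-only barcodes. *Dcn* was detected in 88.9%, against 90.6% of CAF-only and 0.734% of melanoma-only barcodes. *Dct* and *Pmel* were found in 100% and *Mlana* in 96.7%. *Dct* also had a UMI in 59.7% of CAF-only barcodes and in 48.9% of barcodes with at least 10 UMIs of 9 immune genes and neither marker set. *Pmel* had one in 41.3% and 28.4%. The median depth was 12306 UMIs in dual-marker, 4537 in CAF-only and 9735 in melanoma-only barcodes.

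The levels of the rule's genes, which the choice of the barcodes fixed in part, were as follows. *Dct*, which acts late in eumelanin synthesis, was at 4252 CPM (UMIs of the gene in 1000000 UMIs) over all dual-marker barcodes, 202.5 in CAF-only and 5786 in melanoma-only barcodes. *Pmel*, the fibril protein of the melanosome, was at 2191, 113.6 and 3084 CPM. The collagens were lower than in CAF-only barcodes. *Col3a1* was at 4189 CPM in dual-marker, 13471 in CAF-only and 5.67 in melanoma-only barcodes, and *Dcn* at 795, 2503 and 0.806 CPM. Each of the 9 genes of the rule thus lay between the 2 other classes.

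Genes that define each lineage but were not in the rule followed the same order. *Mitf*, the master transcription factor of pigment cells, was detected in 77.8% of dual-marker, 18.8% of CAF-only and 79.7% of melanoma-only barcodes. *Sox10*, a neural crest factor upstream of *Mitf*, was detected in 53.3%, 5.55% and 61.6%. *Lum*, a keratan sulphate proteoglycan of fibroblasts, was detected in 51.1%, 54.5% and 0.468%, and *Pdgfra*, a receptor of mesenchymal cells, in 33.3%, 46.2% and 0.179%. *Ptprc* (leucocytes), *Cd3e* (T cells), *Pecam1* and *Cdh5* (endothelium), *Krt14* (keratinocytes) and *Hbb-bs* (red cells) had 0 UMIs in the dual-marker barcodes. *Tyrobp*, another leucocyte gene, had a UMI in 1 dual-marker barcode. *Krt14* was at 0 in all classes, and *Cd3e* was at 0 in CAF-only and immune-high barcodes too.

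The dual-marker barcodes held more UMIs than CAF-only barcodes in every tumour. Their median was 12887, 6032, 6103 and 12505 UMIs in *Atf4* WT/WT tumours 1 to 4 and 12849.5, 11763, 8646 and 13326.5 in *Atf4* Δ/Δ tumours 1 to 4. CAF-only medians ran from 3375 to 5264.5 and melanoma-only medians from 8135 to 11173. The dual-marker median was above that of CAF-only barcodes in 8 of 8 tumours, above that of melanoma-only barcodes in 5 of 8, and above the 2 medians added together in 2 of 8. Single barcodes ran from 553 to 22357 UMIs. The median number of genes was 3622.5, against 1829 in CAF-only and 3079 in melanoma-only barcodes. Mitochondrial genes took 4.72% of UMIs at the median, between 2.76% in CAF-only and 5.37% in melanoma-only barcodes, and lay between them in 6 of 8 tumours. UMI totals enter the rule and the filters, so the classes were not tested against each other for them. A further 19 barcodes met both marker limits outside the filters, 4 above the gene limit and 15 above the mitochondrial limit.

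Each dual-marker profile was also written as a mixture of the CAF-only and melanoma-only profiles of its own tumour, over 31031 genes that were neither in the rule nor mitochondrial. The melanoma-only profile took 75.8%, 76.5%, 70.8% and 70.9% of the UMIs in *Atf4* WT/WT tumours 1 to 4. In *Atf4* Δ/Δ tumours it took 74.3%, 74.2%, 94.5% and 74.6%, where the third value rests on 1 barcode. Read instead from the summed CPM of other melanocyte genes, the weights spanned 62.9% to 106% without that tumour, the highest in *Atf4* WT/WT tumour 3. For single barcodes, with profiles pooled over the tumours of a genotype, the median weight was 70.9% and the quartiles 59.98% and 79.99%. A median of 7928 UMIs fell to the melanoma and 2899 to the fibroblast profile.

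A small group of dual-marker barcodes had almost no melanoma weight. In 5 the weight was under 20%, in 5 it was 20 to 40%, in 14 it was 40 to 60%, in 43 it was 60 to 80%, and in 23 it was above 80%. The lowest 3 weights were 0.0106%, 0.176% and 1.53%, in barcodes of 1327, 3396 and 553 UMIs whose melanoma-set shares were 0.301%, 0.324% and 0.904%. Another low weight, 9.14%, belonged to a barcode of *Atf4* Δ/Δ tumour 2 with 509 collagen-set UMIs, the highest of all 90. These few therefore resembled CAF-only barcodes outside the marker genes.

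**Figure D2:**
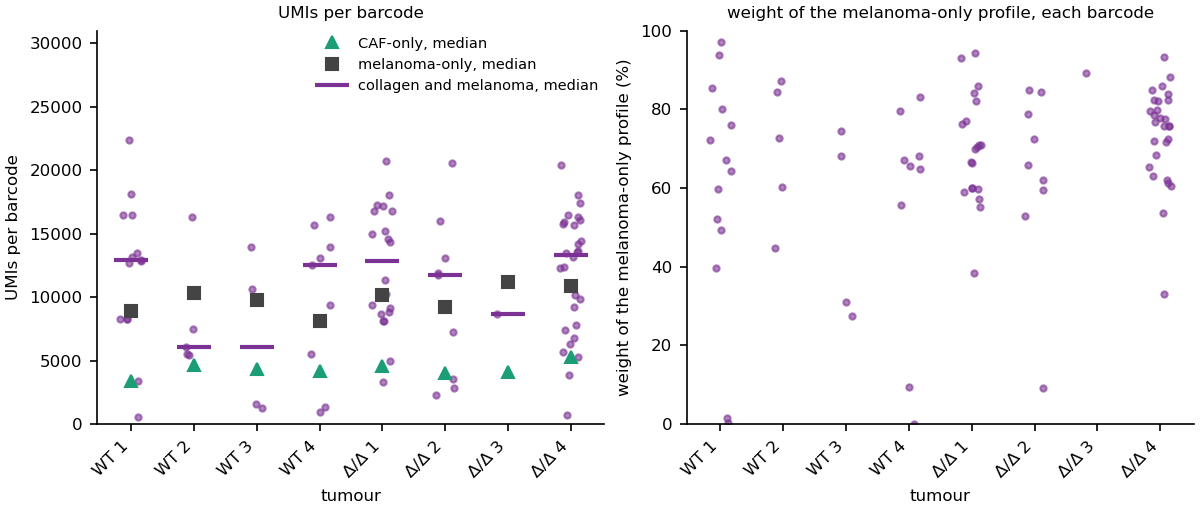
Left, UMIs per barcode (y axis) in each tumour (x axis), with a purple point per dual-marker barcode, a bar at their median and the medians of CAF-only (triangles) and melanoma-only barcodes (squares). Right, weight of the melanoma-only profile in each dual-marker barcode (y axis, %). The medians lie above the CAF-only medians in all 8 tumours, and most weights lie between 40% and 100%, with 5 under 20%.

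Across genes, the dual-marker barcodes followed the mixture closely. Of 3162 genes with at least 50 UMIs in them, the rule's genes left out, 3141 (99.3%) lay within 1.5-fold of the mixture, against 49.7% within 1.5-fold of the CAF-only and 87.1% within 1.5-fold of the melanoma-only profile. The weights were fitted to these same counts, so the closeness is a description. Of 1192 genes at least 2-fold apart between the 2 classes, 1153 (96.7%) lay between them, 433 of 435 higher in CAF-only and 720 of 757 higher in melanoma-only barcodes. Pearson's r of log2 levels across these genes, which are not independent, was 0.991 with the mixture, 0.803 with CAF-only and 0.710 with melanoma-only barcodes.

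The genes farthest from the mixture were few. *Prg4*, which encodes the lubricating proteoglycan lubricin, stood at 110 CPM against 51.2 in the mixture, and *Sfrp2*, a secreted modulator of WNT signalling, at 60.9 against 35.2 CPM. *Mgp*, an inhibitor of calcification made by fibroblasts and vessel walls, was at 127 against 200 CPM, and *Ninj1*, which acts in plasma membrane rupture of dying cells, at 79.8 against 126 CPM. In the 3 tumours with at least 10 dual-marker and 10 CAF-only barcodes, 75 of 3162 genes were above both classes in every tumour and 170 of 5941 below both. The highest excess over both was a median log2 ratio of 0.49 for *Sccpdh*, 0.42 for *Gatad2b* and 0.41 for *Csnk2a1*. Below both, the ratios reached further from 0 but rested on few UMIs. They were −1.58 for *Sertad1*, −1.38 for the kinase gene *Mark2* and −1.32 for *Cck*, the gene of cholecystokinin, which had 16, 23 and 38 UMIs in all dual-marker barcodes, and the lowest-ranked gene, *Ifit3*, had 0 UMIs in these 3 tumours.

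The leading gene of the dual-marker over the CAF-only barcodes was *Pax3*, a neural crest transcription factor, which had a median log2 ratio of 6.29 and stood at 187 CPM, against 7.08 in CAF-only and 229 in melanoma-only barcodes. *Syt4*, a vesicle protein, followed at 5.03 and *Ppargc1a*, a regulator of mitochondrial biogenesis, at 4.96. Over melanoma-only barcodes *Bgn*, a small proteoglycan, led with 8.88 and stood at 1020 CPM, against 3274 in CAF-only and 1.30 in melanoma-only barcodes, followed by *Rarres2* (chemerin) at 8.64 and *Mfap5*, a microfibril protein, at 8.52.

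Of 25 other melanocyte genes, 21 were detected, and 17 of the 18 with at least 10 UMIs lay between the classes. Summed, they stood at 5517, 4193, 6414 and 4484 CPM in the dual-marker barcodes of *Atf4* WT/WT tumours 1 to 4 and at 5502, 5293, 5552 and 4602 CPM in those of *Atf4* Δ/Δ tumours 1 to 4. The ranges of the genotypes overlapped, and the pooled level was 5070 CPM, against 436 in CAF-only and 6729 in melanoma-only barcodes. *Gpnmb*, a melanosomal glycoprotein, was the most abundant at 1360 CPM, against 117 and 1769. *Ptgds*, a prostaglandin synthase, was at 1048 CPM, against 68.3 and 1369.

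Of 38 other matrix genes, 37 were detected, and all 36 with at least 10 UMIs lay between the classes. Their sum was 13826, 12872, 15524 and 16055 CPM in the 4 *Atf4* WT/WT tumours and 16612, 20386, 4511 and 12757 CPM in *Atf4* Δ/Δ tumours. The lowest value was that of the single barcode of *Atf4* Δ/Δ tumour 3. *Sparc*, a collagen-binding matricellular protein, was at 3552 CPM, against 10706 in CAF-only and 431 in melanoma-only barcodes, and *Timp1*, an inhibitor of matrix metalloproteinases, at 1670, against 5070 and 25.3 CPM. The 17 fibroblast identity genes with at least 10 UMIs, of 19, all lay between as well. *Fstl1*, a secreted glycoprotein, was at 539 CPM, against 1727 and 14.9.

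Genes of pericytes, of contractile cells and of adventitial fibroblasts, which lie around larger vessels, were each found in some dual-marker barcodes. *Rgs5*, a pericyte gene, reached 5 UMIs in 5 of 90 (5.56%) and in 28 of 595 CAF-only barcodes (4.71%), and none of these had 5 UMIs of the 10 adventitial genes. *Acta2*, smooth muscle actin, reached 5 UMIs in 11 (12.2%), against 88 CAF-only barcodes (14.8%), and 2 of the 11 also had 5 adventitial UMIs. The adventitial genes reached 5 UMIs in 31 (34.4%), against 238 CAF-only barcodes. These shares differed by under 6 percentage points from those of the CAF-only barcodes, and the difference was not tested. CAF-only barcodes held fewer UMIs in all, with a median of 4537. That is above the median of 2899 UMIs that the mixture gave to the fibroblast profile in dual-marker barcodes. In *Atf4* WT/WT tumour 2 the pericyte and contractile genes summed to 3604 CPM in 5 dual-marker barcodes, against 327 to 580 in the other tumours, and *Rgs5* stood at 834 and *Acta2* at 1250.5 CPM there. *Rgs5* was found in 3 of these 5 barcodes, which held 76, 44 and 22 UMIs of the pericyte and contractile genes. Those 3 had 14, 10 and 10 collagen-set UMIs, at or near the limit of 10. The CAF-only barcodes of that tumour held 875 CPM of *Rgs5* and 2043 of *Acta2*.

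Cell cycle genes summed to 1862 CPM, between 993 in CAF-only and 2372 in melanoma-only barcodes, with *Top2a*, the topoisomerase of dividing cells, as the most abundant, and 19 of 20 lay between when pooled. Within tumours the sum lay between the classes in 5 of 8 tumours. It was below both in *Atf4* WT/WT tumour 3 (911 CPM) and in the 1 barcode of *Atf4* Δ/Δ tumour 3 (116 CPM), and above both in *Atf4* Δ/Δ tumour 2 (2175 CPM). *Mki67*, a marker of cycling cells, had a UMI in 38 dual-marker barcodes (42.2%) and in 110 CAF-only barcodes (18.5%), at unequal depth. Hypoxia genes summed to 8415 CPM, against 10959 and 7497, and integrated stress response genes to 2093 CPM, against 1595 and 2758, with the sum between the classes in 4 and 5 of 8 tumours. Among the latter, *Asns*, asparagine synthetase, was at 188 CPM, against 45.3 and 285, and *Phgdh*, the first enzyme of serine synthesis, at 234, against 32.9 and 387. The transcription factors of epithelial–mesenchymal transition summed to 279 CPM, against 489 and 157. *Twist1* was at 23.9 CPM, against 102 in CAF-only and 0.0385 in melanoma-only barcodes, and *Zeb2* at 195, against 181 and 154.

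Genes of other cell types were scarce. Of 18 immune genes 9 were detected with 43 UMIs in all, 42.9 CPM against 167 in CAF-only and 39.6 in melanoma-only barcodes. *H2-Ab1*, of class II antigen presentation, was the most abundant with 21 UMIs, and *Ptprc*, *C1qb* and *Cd3e* were at 0. Of 10 endothelial genes 6 were detected, 122 CPM against 132 and 108, led by *Eng* with 86 UMIs, while *Pecam1*, *Cdh5*, *Kdr* and *Emcn* were at 0. Erythroid genes were at 0 in 1002223 UMIs, which allows up to 2.99 CPM by counting error. Of 7 keratinocyte genes *Krt10* alone was found, with 6 UMIs. Of 6 Schwann cell genes 4 were found at 94.8 CPM, against 7.79 and 118, led by *Mbp*, and *Sox2* and *Ngfr* were at 0.

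**Figure D3:**
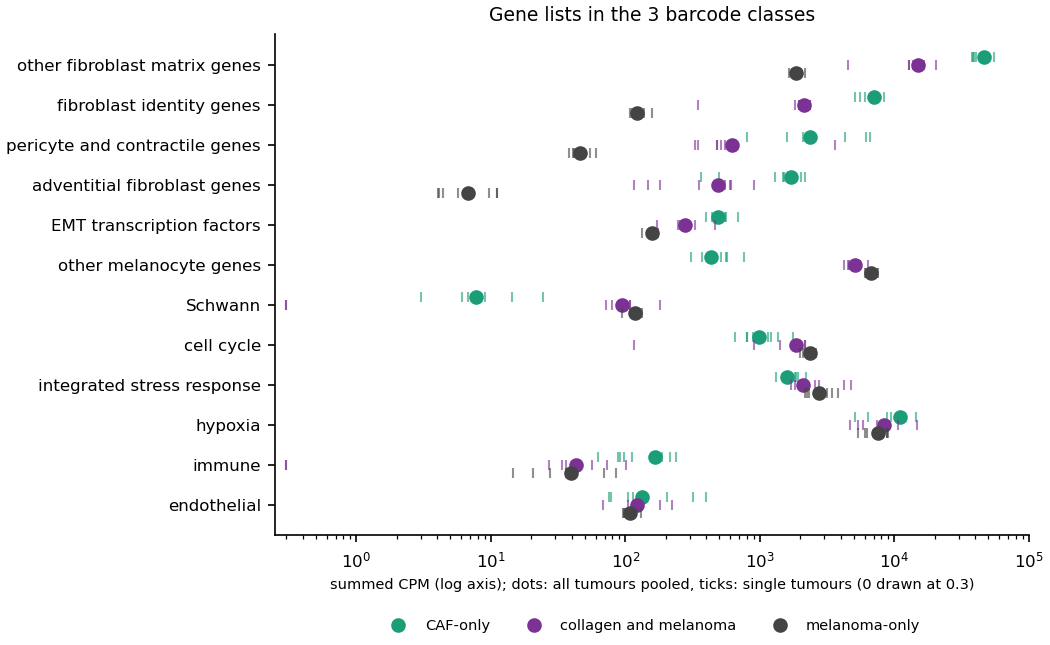
Summed CPM of each gene list (x axis, log scale) in CAF-only (green), dual-marker (purple) and melanoma-only barcodes (grey), as pooled values (dots) and single tumours (ticks). Matrix genes stand at 46280, 14870 and 1844 CPM and other melanocyte genes at 436, 5070 and 6729 CPM, with the dual-marker barcodes between.

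Host-marking transcripts were present in the dual-marker barcodes at a fraction of their CAF-only level. *Xist* was at 149, 255 and 177 CPM in *Atf4* WT/WT tumours 1 and 3 and *Atf4* Δ/Δ tumour 1, from 25, 7 and 44 UMIs. In the CAF-only barcodes of these tumours it was at 465, 403 and 538 CPM, and in melanoma-only barcodes of all tumours between 0.151 and 1.20 CPM. The summed Y-linked genes were at 73.6 and 22.5 CPM in *Atf4* WT/WT tumours 2 and 4 and at 89.7 and 39.2 CPM in *Atf4* Δ/Δ tumours 2 and 4, against 197, 103, 158 and 129 CPM in CAF-only barcodes. In *Atf4* Δ/Δ tumour 3 they had 0 UMIs in the 1 dual-marker barcode. Of the 90 barcodes, 47 carried a UMI of *Xist* or of a Y-linked gene, and 0 carried both kinds. Each library had 1 host and no tumour had both kinds in its CAF-only barcodes, so that 0 says nothing about the make-up of the barcodes.

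*Atf4* (GRCm38 chr15:80255184-80257541, plus strand, 3 exons) gave a second mark, since CAF-only barcodes come from hosts with or without the gene. In CAF-only barcodes it was at 313, 271, 279 and 264 CPM in *Atf4* WT/WT tumours and at 117, 88.2, 171 and 46.1 CPM in *Atf4* Δ/Δ tumours, with no overlap between the genotypes. In dual-marker barcodes it was at 221, 490, 692 and 349 CPM in the 4 *Atf4* WT/WT tumours and at 234, 191, 810 and 244 CPM in *Atf4* Δ/Δ tumours, where the genotypes overlapped. Melanoma-only barcodes held 261 to 405 CPM and 307 to 438 CPM. The mixture value lay within the 95% Poisson interval of the dual-marker count, which covers counting error only, in 6 of 8 tumours. It lay below the interval in *Atf4* WT/WT tumour 3 (332 CPM) and above it in *Atf4* Δ/Δ tumour 2 (333 CPM).

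**Figure D4:**
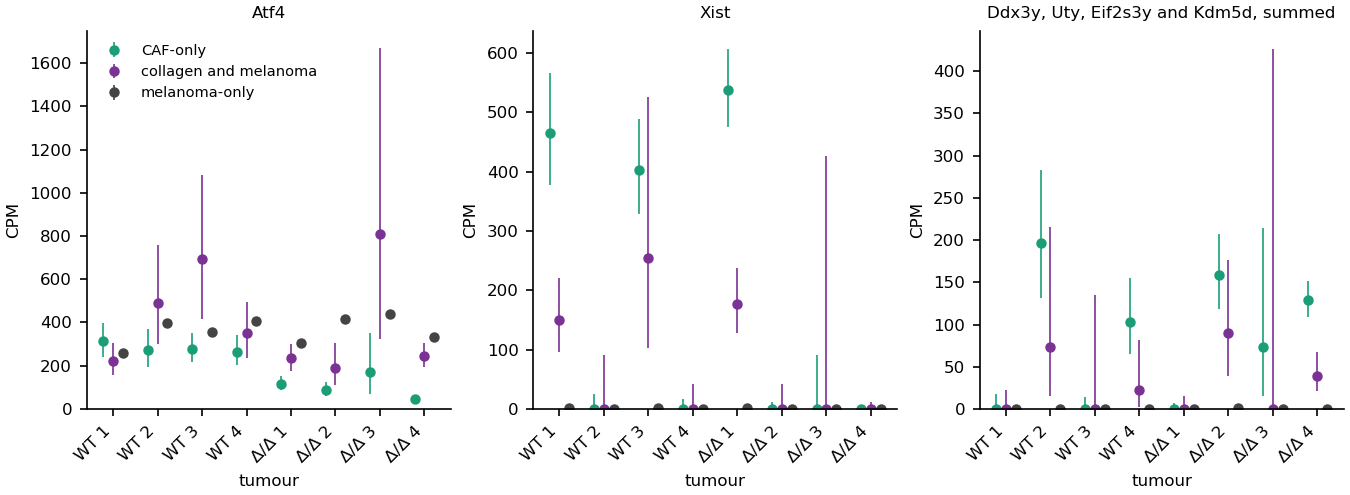
CPM (y axis) of *Atf4*, *Xist* and the summed Y-linked genes in CAF-only (green), dual-marker (purple) and melanoma-only barcodes (grey) of each tumour (x axis), with 95% Poisson intervals for counting error. In CAF-only and dual-marker barcodes no tumour holds both *Xist* and Y-linked UMIs, and *Atf4* in the CAF-only barcodes of *Atf4* Δ/Δ hosts lies at 46.1 to 171 CPM.

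Dual-marker barcodes were compared between host genotypes to ask whether their frequency or make-up followed host *Atf4*, which the rule did not use. They numbered 14, 5, 4 and 9 in *Atf4* WT/WT and 20, 9, 1 and 28 in *Atf4* Δ/Δ tumours. As a share of kept barcodes this was 0.251%, 0.163%, 0.148% and 0.264%, and 0.679%, 0.252%, 0.0270% and 0.819%. The *Atf4* Δ/Δ tumours thus held both the lowest and the 2 highest shares. The means were 0.206% ± 0.0597 and 0.444% ± 0.368 (SD, n = 4 each), and reassigning the genotypes in all 70 ways (exact permutation test, two-sided, smallest possible p 0.0286) gave p = 0.343.

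Relative to the collagen-high barcodes, the share differed less. It was 20.3%, 13.2%, 6.90% and 13.4% in *Atf4* WT/WT and 16.3%, 10.3%, 9.09% and 12.1% in *Atf4* Δ/Δ tumours, and 13.1% over all (95% Clopper-Pearson interval 10.7% to 15.9%, for counting error only and not for the spread between tumours). The means, 13.4% ± 5.47 and 11.9% ± 3.13 (SD, n = 4 each), gave p = 0.657 in the exact permutation test. CAF-only barcodes numbered 55, 33, 54 and 58 in *Atf4* WT/WT and 103, 78, 10 and 204 in *Atf4* Δ/Δ tumours. The median depth of dual-marker barcodes, 9382 ± 3830 against 11646 ± 2104 UMIs (p = 0.314), and the melanoma weight, 73.5% ± 3.07 against 79.4% ± 10.1 (p = 0.343, SD, n = 4 each), were not separated from replicate spread by the same exact test. Adjusted over the 4 comparisons, the p-values of these exact tests were 0.457 to 0.657. Without *Atf4* Δ/Δ tumour 3 the weights differed by 0.856 percentage points. Read from the summed CPM of other fibroblast matrix genes, the weight was higher on average in *Atf4* Δ/Δ. It was 62.8% to 72.2% in *Atf4* WT/WT and 65.1% to 92.4% in *Atf4* Δ/Δ tumours, the highest from the 1 barcode of *Atf4* Δ/Δ tumour 3. Read from the summed CPM of other melanocyte genes, the weight was lower in *Atf4* Δ/Δ instead. The difference in the share of collagen-high barcodes also changed sign, to 0.779 points, without *Atf4* WT/WT tumour 1.

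**Figure D5:**
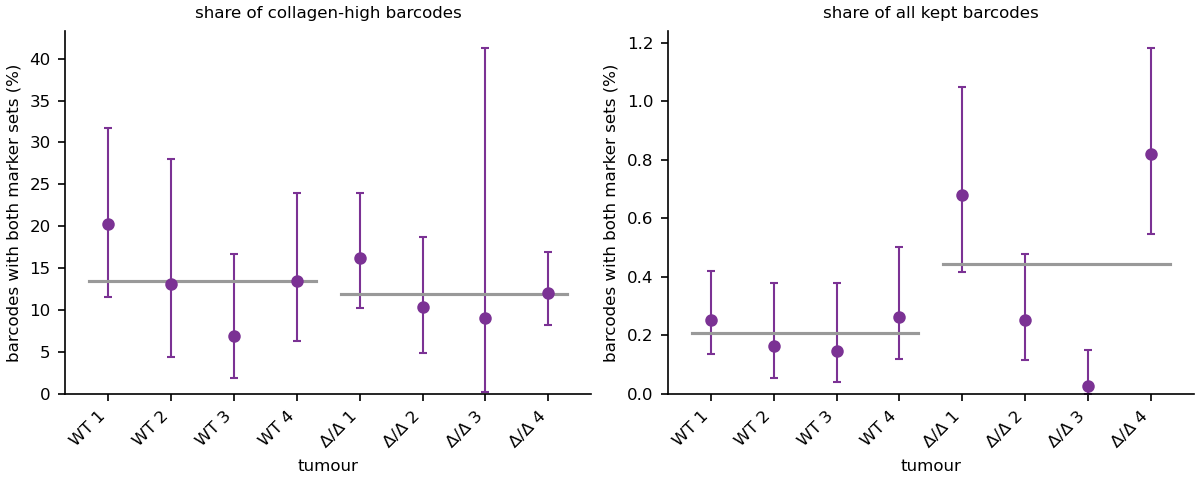
Dual-marker barcodes as a share of collagen-high barcodes (left, y axis, %) and of all kept barcodes (right, y axis, %) in each tumour (x axis), with 95% Clopper-Pearson intervals and the genotype mean as a grey line. Shares of collagen-high barcodes span 6.90% to 20.3% in *Atf4* WT/WT and 9.09% to 16.3% in *Atf4* Δ/Δ tumours.

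The melanoma limit was also met by immune barcodes. Of 743 barcodes with at least 10 UMIs of the 9 immune genes, 119 (16.02%) were melanoma-positive, at a median of 5003 UMIs, against 1727 for all 743. Over tumours the melanoma-positive share averaged 12.7% ± 4.203 of collagen-high and 15.8% ± 8.11 of immune-high barcodes (SD, n = 8). Collagen-high minus immune-high, the difference was −3.12 percentage points and was not separated from zero by an exact sign-flip permutation test (two-sided p = 0.164, higher in collagen-high barcodes in 2 of 8 tumours). It was 1.59 points with an immune minimum of 20 UMIs (exact p = 0.492) and −4.41 points without *Atf4* Δ/Δ tumour 1 (exact p = 0.0469). Of the collagen-high barcodes, 4 were also immune-high, and none of these was a dual-marker barcode.

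Gene by gene, the genotype was tested on UMIs summed per tumour with edgeR's quasi-likelihood test and Benjamini-Hochberg adjustment. At least 10 dual-marker barcodes were present in *Atf4* WT/WT tumour 1 and *Atf4* Δ/Δ tumours 1 and 4 alone, so this comparison had 1 residual degree of freedom and the lone *Atf4* WT/WT tumour was assumed to vary like the others. Genotype and that tumour cannot be told apart in it. It called 10 of 4738 genes (0.211%), 4 higher (0.0844%) and 6 lower (0.127%) in *Atf4* Δ/Δ, and DESeq2 called 0. With all 8 tumours, each with at least 1 dual-marker barcode, edgeR called 0 of 1491 genes (0%), 55 passed an unadjusted p of 0.05, and DESeq2 called 1. Of the 10 genes, 5 had enough UMIs to be tested over the 8 tumours, and none of the 5 was called there.

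Several of these calls rested on few barcodes. *Mgp* had a log2 fold change of −2.44 (SE 0.31) over 3 tumours, with an adjusted p of 1.03e-11 by edgeR and 0.913 by DESeq2. It stood at 430, 123, 0 and 22.5 CPM in *Atf4* WT/WT and at 113, 33.6, 0 and 51.2 CPM in *Atf4* Δ/Δ tumours, and 53 of its 72 UMIs in *Atf4* WT/WT tumour 1 came from 1 barcode. The groups overlapped. *Spp1*, osteopontin, had a log2 fold change of 1.06 (SE 0.25) over 3 tumours, with an adjusted p of 0.0122 by edgeR and 1.00 by DESeq2. Over 8 tumours it was 0.68 (edgeR adjusted p = 0.998), and 0.11 without *Atf4* Δ/Δ tumour 4, where 222 of 335 UMIs came from 1 barcode.

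*Timp3*, a matrix-bound metalloproteinase inhibitor, was spread over more barcodes. It stood at 269, 196, 72.9 and 169 CPM in *Atf4* WT/WT and at 44.3, 191, 0 and 51.2 CPM in *Atf4* Δ/Δ tumours. The 0 is that of the 1 barcode of *Atf4* Δ/Δ tumour 3, where 3 counts would make 347 CPM, so it shows no lower level. The log2 fold change was −2.46 (SE 0.38, edgeR adjusted p = 2.03e-07) over 3 tumours and −1.53 (SE 0.45, edgeR adjusted p = 0.739) over 8. Over 3 tumours *Pcsk5* (−2.43), *Inhba* (−1.58) and *Sgk1* (−1.45) were also called lower, and *Nrep* (3.61) and *Mmp3* (1.97) higher. Over 8 tumours *Sgk1* had −0.67 (edgeR adjusted p = 0.998).

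*Atf4* itself was not called in dual-marker barcodes. The mean level was 438 ± 202 CPM with host *Atf4* and 369 ± 294 CPM without it (SD, n = 4 each). The second mean includes 810 CPM in *Atf4* Δ/Δ tumour 3, from 7 UMIs in 1 barcode. The other *Atf4* Δ/Δ tumours stood at 191 to 244 CPM. The log2 fold change was −0.59 (SE 0.35, edgeR adjusted p = 0.998) over 8 tumours and −0.67 (edgeR adjusted p = 0.982) without *Atf4* Δ/Δ tumour 3. Over 3 tumours, of which 1 was *Atf4* WT/WT, it was 0.12 (SE 0.30). In CAF-only barcodes the means were 282 ± 21.6 and 106 ± 52.6 CPM, with −1.69 (SE 0.29), an edgeR adjusted p of 0.0802 and a DESeq2 adjusted p of 0.0113. There edgeR called 1 of 3618 genes (0.0276%), *Fosl1*, a subunit of the AP-1 transcription factor (2.02, adjusted p = 0.0396). That call was lost with any tumour but *Atf4* Δ/Δ tumour 3 left out (edgeR adjusted p 0.0578 to 0.271). It was also lost with labelled sex as a covariate (0.0598) and with a melanoma-set minimum of 1% (0.0576). The log2 fold change of *Fosl1* moved little, to 1.82 to 2.25 with a tumour left out, 1.96 with labelled sex and 1.90 with the 1% minimum. DESeq2 also called *Fosl1* (adjusted p = 0.0341). In melanoma-only barcodes *Atf4* differed by 0.03 (SE 0.14), and edgeR called 0 of 12595 genes (0%), with 1375 at an unadjusted p under 0.05 and 117 (0.929%) called by DESeq2.

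Of the lists, 1 gene passed the test in dual-marker barcodes, *Timp3* among 34 matrix genes tested over 3 tumours, of which 1 was *Atf4* WT/WT, where edgeR called 10 of 4738 genes (0.211%), and none over 8. Over 8 tumours the median log2 fold change was 0.07 for 28 matrix genes, −0.10 for 11 other melanocyte genes, 0.23 for 7 fibroblast identity genes and 0.28 for 6 cell cycle genes, against −0.02 for all 1491 genes. For 9 integrated stress response genes it was −0.49, with 1 of 9 higher in *Atf4* Δ/Δ and none called, whereas over 3 tumours 15 of these genes had a median of 0.07, with 8 higher. For 12 hypoxia genes it was −0.01 over 8 tumours and, for 15, −0.40 over 3. In CAF-only barcodes 13 integrated stress response genes had a median of −0.42 and in melanoma-only barcodes 22 had −0.17.

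The difference between the classes in their response to genotype was tested as an interaction in edgeR with the tumour as a block. Between dual-marker and CAF-only barcodes it called 17 of 6055 genes (0.281%) over 3 tumours and 3 of 5029 (0.0597%) over 8. DESeq2 called 0 over the 3, of which 1 was *Atf4* WT/WT, so that genotype and that tumour cannot be told apart. *Atf4* had an interaction of 2.22 on the log2 scale (SE 0.39, adjusted p = 3.15e-05) over 3 tumours and of 1.21 (SE 0.36, adjusted p = 0.265) over 8, with a DESeq2 adjusted p of 1.00 over the 3. The others over 3 tumours with the largest values were *Ccl5*, a chemokine (−11.44), *Rgs5* (7.70), *Sox9* (−4.57), *Fabp4*, a lipid carrier (4.31), *Lcn2*, an iron-binding acute phase protein (−2.41), *Pcsk5* (−2.30), *Serpinb2* (−2.10), *Mmp3* (2.08) and *Apoe* (1.75). *Ccl5* had 5 UMIs and *Rgs5* 60 UMIs in all dual-marker barcodes together, and *Rgs5* had 0 in 5 of the 8 tumours. The values of both rest on a class sum of 0 in *Atf4* WT/WT tumour 1 or *Atf4* Δ/Δ tumour 1 and are no bounds.

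Over 8 tumours the calls were *Ifit3* (−5.39), *Ifit1* (−4.83) and *Sulf2*, an extracellular sulphatase (−2.94). Both interferon-induced genes rested on *Atf4* WT/WT tumour 4, where *Ifit1* had 14 UMIs, 10 of them in 1 barcode, and *Ifit3*, which has a near-identical copy in the mouse genome, 10 UMIs, 9 in 1 barcode. Without that tumour the interaction of *Ifit1* was 1.60 and no gene was called. Between dual-marker and melanoma-only barcodes the interaction called 13 of 12642 genes (0.103%) over 3 tumours, all lower. Of the 13, 4 were the collagen-set genes, whose counts the rule used, and their values support nothing. Over 8 tumours it called 1 of 12420 (0.00805%), *Lox*, lysyl oxidase, which crosslinks collagen (−2.02, SE 0.40, edgeR adjusted p = 0.00686).

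*Lox* was the one gene called over 8 tumours against melanoma-only barcodes, and its levels in dual-marker barcodes overlapped between genotypes. In melanoma-only barcodes it was near 0, at 0.297 ± 0.326 CPM (34 UMIs) in the 4 *Atf4* WT/WT and 0.733 ± 0.653 CPM (90 UMIs) in the 4 *Atf4* Δ/Δ tumours (SD). Dual-marker barcodes held 121, 5, 18 and 59 *Lox* UMIs in *Atf4* WT/WT tumours and 119, 47, 0 and 107 UMIs in *Atf4* Δ/Δ tumours, where the 0 is that of 1 barcode. Leaving out each tumour in turn gave −2.90 to −1.21 for *Lox*, with edgeR adjusted p-values of 7.44e-05 to 1.00.

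Host sex, as labelled and with genotype as a covariate, gave no call in any class by edgeR. In dual-marker barcodes of 8 tumours it called 0 of 2139 genes (0%), with 48 at an unadjusted p under 0.05. CAF-only barcodes gave 0 of 4450 (115) and melanoma-only barcodes 0 of 13031 (461), where DESeq2 also called 0 in each. The labels of 4 hosts went against *Xist* and the Y-linked genes as given above, and these results rest on the labels.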

How the data were processed

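Per the labels, 1 10x 3′ library was made per tumour (V3 kit, where the methods of the study give V2), and the submitters' processing notes name Cell Ranger 3.1.0 and Seurat 3.2.1. The authors aligned reads to GRCm38 and deposited, tumour by tumour, matrices of unscaled UMI counts without normalization, doublet removal or cell labels. Libraries were run on either of 2 instruments, and which tumour was run on which is not given in the sources used here.

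From these counts, barcodes were filtered and sorted by the rule, and UMIs were summed per class and tumour (Python 3.11.15, numpy 2.4.6, pandas 2.3.3, scipy 1.17.1). Sums were analysed in R 4.3.3 with edgeR 4.0.16 (expression filter, TMM, quasi-likelihood test, Benjamini-Hochberg adjustment, threshold 0.05), with DESeq2 1.42.0 as an alternative, after checks on simulated data. CPM are per 1000000 UMIs of a class. A count of 0 stayed 0 in levels and means. The CPM that 3 counts would make was taken as its limit, 9.03 to 347 CPM for dual-marker barcodes of single tumours. Mixture weights were fitted by multinomial likelihood with 0.5 added to each profile count. Ratios used a CPM pseudocount of 1. Log2 fold changes are *Atf4* Δ/Δ minus *Atf4* WT/WT. Members and gene lists were chosen with earlier results of these data known. Genes were named as rule genes, as *Atf4*, as the most abundant of 15 lists, as calls with the largest changes (at most 10 per fit), or as leaders of fixed rankings (at least 50 UMIs). Counts of calls cover all genes tested, and 2 of the genes called are not reported here. *Mitf*, *Sox10*, *Lum*, *Pdgfra* and the other lineage markers came with the marker list. *Prg4*, *Sfrp2*, *Mgp*, *Ninj1* and *Twist1* were named after their values were seen. All 15 looked-up genes matched the annotation by identifier.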

Additional observations from a re-analysis of the deposited data

Results flagged for a closer look

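In *Atf4* Δ/Δ tumour 3, which held 1 dual-marker barcode, 3 values stood apart from the other *Atf4* Δ/Δ tumours. The melanoma weight was 94.5% against 74.2% to 74.6%, *Atf4* was at 810 CPM against 191 to 244, and the integrated stress response genes summed to 4740 CPM against 1690 to 1980. These were 3 of 44 groups of 4 tumours examined, and chance gives about 5% of such groups.

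The difference in genotype effect between dual-marker barcodes and the other classes passed edgeR's interaction test for some genes. Against CAF-only barcodes it did so for 17 genes over 3 tumours and 3 over 8, and against melanoma-only barcodes for 13 and 1. Of the 13, 4 were the collagen-set genes the rule used, and nothing is read from them. The 3 tumours held 1 *Atf4* WT/WT tumour, so that genotype and that tumour cannot be told apart. *Atf4* was among the 17, with 2.22 on the log2 scale (edgeR adjusted p = 3.15e-05, DESeq2 1.00). Over 8 tumours its value was 1.21 (edgeR adjusted p = 0.265).

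Outside the filters, 19 further barcodes met both marker limits and entered no comparison.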

How the results depend on the processing

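The 4 per-tumour measures of genotype had no exact permutation p under 0.05 in any alternative run: 0.0571 to 0.800 for the share of kept barcodes, 0.229 to 1.00 for the share of collagen-high barcodes, 0.114 to 0.857 for depth and 0.0571 to 0.914 for the melanoma weight. Leaving out each tumour gave differences (*Atf4* Δ/Δ minus *Atf4* WT/WT) of 0.113 to 0.377, −3.69 to 0.779 and 0.856 to 7.61 percentage points for both shares and the weight, and 1150 to 3430 UMIs for depth. The share of collagen-high barcodes changed sign without *Atf4* WT/WT tumour 1. The weight kept its sign when read from the summed CPM of other fibroblast matrix genes. It changed sign to −8.99 when read from the summed CPM of other melanocyte genes. Collagen-high minus immune-high was 1.59 points with an immune minimum of 20 UMIs and −4.41 to −2.07 with a tumour left out (exact p 0.0469 to 0.328, the lowest without *Atf4* Δ/Δ tumour 1).

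For genotype in dual-marker barcodes, edgeR called 10 genes over 3 tumours, 4 with RLE size factors, 0 with DESeq2, and 0 with all 8 tumours (1 with DESeq2, 0 to 0 with a tumour left out). In CAF-only barcodes the count was 1, and 94 without the filter on low counts, 2 with DESeq2, 0 with a melanoma-set minimum of 1%, 0 with labelled sex as a covariate and 0 to 6 with a tumour left out, 6 without *Atf4* Δ/Δ tumour 3. In melanoma-only barcodes it was 0, and 39, 117, 0, 2 and 0 to 6. The interaction with CAF-only barcodes called 17, and 3 over 8 tumours (0 to 9 with a tumour left out, 9 and 7 without *Atf4* WT/WT tumours 1 and 2, 0 without *Atf4* WT/WT tumour 4 or *Atf4* Δ/Δ tumour 1), 4 with RLE, 10 unfiltered and 0 with DESeq2. That with melanoma-only barcodes called 13, and 1 over 8 tumours (0 to 4, 0 without *Atf4* WT/WT tumour 1 or *Atf4* Δ/Δ tumour 4) and 8 with DESeq2. Labelled host sex gave 9 calls unfiltered in CAF-only and 14 in melanoma-only barcodes, and 0 to 1 and 0 to 0 with a tumour left out.

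Over 8 tumours without *Atf4* WT/WT tumour 1, 4 genes changed sign: *Sgk1* (0.0696) between genotypes, *Serpinb2* (0.34) and *Apoe* (−0.60) in the interaction with CAF-only and *Vegfa* (0.085) in that with melanoma-only barcodes. In the former, *Rgs5* changed to −0.0797 without *Atf4* WT/WT tumour 4 and −0.20 without *Atf4* Δ/Δ tumour 1. *Ifit1* changed to 1.60 without *Atf4* WT/WT tumour 4. Its value was 1.67 with RLE size factors and 1.52 unfiltered, in fits of 1 *Atf4* WT/WT and 2 *Atf4* Δ/Δ tumours. Those fits also left out *Atf4* WT/WT tumour 4, so they do not show what the size factors or the filter changed. *Col1a2* changed to 0.00311 in the interaction with melanoma-only barcodes without *Atf4* Δ/Δ tumour 4. The cause was not tested.

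Replicate numbers did not pair the tumours: same-numbered deviations correlated at −0.06, −0.44, −0.14 and −0.17 in melanoma-only sums. With a replicate block edgeR called 1 gene in dual-marker barcodes over 8 tumours, 2 in CAF-only, among them *Atf4* (adjusted p = 0.0426) but not *Fosl1* (0.0563), and 0 in melanoma-only barcodes. Over the 3 tumours with at least 10 dual-marker barcodes, the block, sex, a stricter melanoma limit and leaving out a tumour could not be fitted. The 27441 UMIs or fewer of the dual-marker barcodes in *Atf4* WT/WT tumour 3 and *Atf4* Δ/Δ tumour 3 limit what 8 tumours can show.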
